A study of Mus musculus with 34 samples.

Results

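The fibroblast growth factor (FGF) ligands, their receptors and the feedback inhibitors of the pathway were followed through peak lists of tagged coactivators and histone marks in mouse embryos. Members were the genes of the deposited peak tables whose symbol begins with Fgf, Fgfr, Spry, Spred or Dusp followed by a number, together with Fgfrl1. The rule found 57 of 18835 symbols, and 52 of them could be placed on the genome, among 16001 placed genes in all. A gene was placed where at least 2 table peaks that name it as nearest give the same point from their summit and deposited distance, and that point is called its start here. All genes used for comparison were placed in the same way, so genes without such peaks are missing from both sides. By role, the placed members were 17 secreted FGFs, 3 of 4 intracellular FGFs, all 5 receptors, 6 Sprouty and Spred inhibitors, 9 of 10 MAP kinase phosphatases, 11 of 13 other dual-specificity phosphatases and 1 of 2 genes that match by name only (Fgfr1op2, which is not a receptor). The 5 members without a point were Dusp2, Dusp13, Dusp18, Fgf13 and Fgfr1op.

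The series mapped coactivators by chromatin immunoprecipitation and sequencing with an antibody against the FLAG tag, in 129/C57BL/6 mice that carry a SMARCA4/FLAG knock-in allele per the labels. SMARCA4, the ATPase of the SWI/SNF chromatin remodelling complex, was mapped in heart, limb, face, neural tube and the 3 brain regions forebrain, midbrain and hindbrain of embryonic day 11.5, and in embryonic stem cells (ESC) of the same line. SMARCC2, another subunit of that complex, was mapped in face and hindbrain, the acetyltransferase EP300 in ESC and face, and the coactivators NCOA1 and NCOA2 in hindbrain, and the labels give the SMARCA4/FLAG genotype for these samples too. Controls of the same genotype were used for SMARCA4 midbrain, SMARCC2 face and hindbrain, EP300 face, NCOA1 and NCOA2. H3K4me3, H3K27me3 and H3K4me1 in limb and forebrain and H3K27ac in limb came from CD1 embryos of the same day, each tissue with inputs. Tissue was pooled from about 150 or 300 embryos, male and female together. There was 1 library per condition, so no difference has a replicate check and no p-value is given. The intervals given are exact 95% Clopper-Pearson intervals and cover counting error only.

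Secreted FGFs bind receptor tyrosine kinases at the cell surface together with heparan sulfate and start the Ras, Raf, MEK and ERK cascade. Sprouty and Spred proteins act on Ras and Raf, and the MAP kinase phosphatases remove the phosphates that activate ERK, p38 and JNK, and several of these inhibitors are themselves switched on by FGF signalling. At this stage FGFs of the limb bud ridge and of the face and brain organisers direct outgrowth and patterning, and FGF4 is the ligand known from embryonic stem cells. H3K4me3 marks active or poised gene starts, H3K27me3 is deposited by Polycomb, H3K4me1 flanks starts and enhancers, and H3K27ac marks active elements. Starts that carry H3K4me3 and H3K27me3 together are often called bivalent.

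Of the 34 samples, 30 lists were used, and 4 SMARCA4 controls (limb, heart, neural tube and forebrain) were not analysed here. The FLAG lists held 1414 (NCOA1) to 35099 peaks (SMARCA4 face), and the median number of sequence tags per peak was 7 to 91 in the lists that give it. Library depth is unknown beyond that. Markers of the labelled tissue had more SMARCA4 peaks within 100 kb than all placed genes in every tissue but hindbrain, where the ratio of the means was 0.835, and the ratios were 4.39 in heart, 3.67 in midbrain, 3.43 in ESC and 1.39 to 1.72 elsewhere. In forebrain and hindbrain another tissue's markers had more peaks than the tissue's own. The hindbrain sample carries a tissue tag of forebrain and was kept as hindbrain after its title. Endothelial markers, a second cell type of these tissues, had a ratio between 0 in midbrain and 1.01 in heart, and none of the 5 erythroid markers could be placed. Their part in the results was not tested.

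The promoters of 6 members on which the results turn are printed first, because their starts differ in which marks they carried. Each runs 5′ to 3′ from 250 bases before to 50 bases after the RefSeq start on GRCm38.p6, a different build from the mm9 of the peak lists, and no tie between that start and the mm9 point was made. Capitals mark CG dinucleotides. The windows lie at chr14:105896770-105897069 (Spry2, minus strand), chr11:19924192-19924491 (Spred2, plus), chr10:99262981-99263280 (Dusp6, plus), chr13:118714449-118714748 (Fgf10, plus), chr7:144861136-144861435 (Fgf4, plus) and chr6:127072652-127072951 (Fgf23, plus). Within 1 kb of the start, Spry2 and Spred2 carried H3K4me3 without H3K27me3 in limb and forebrain. Dusp6 carried H3K27me3 beside H3K4me3 in forebrain alone, at the edge of that window. Fgf10 carried both marks in both tissues, Fgf4 carried both in limb and H3K27me3 alone in forebrain, and Fgf23 carried neither.
Spry2: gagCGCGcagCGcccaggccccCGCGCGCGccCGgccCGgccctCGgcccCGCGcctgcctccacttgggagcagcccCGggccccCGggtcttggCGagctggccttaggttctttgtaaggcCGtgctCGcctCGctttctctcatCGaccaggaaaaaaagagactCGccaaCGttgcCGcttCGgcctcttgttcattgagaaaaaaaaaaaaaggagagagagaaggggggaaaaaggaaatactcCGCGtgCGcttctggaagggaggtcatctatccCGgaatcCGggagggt
Spred2: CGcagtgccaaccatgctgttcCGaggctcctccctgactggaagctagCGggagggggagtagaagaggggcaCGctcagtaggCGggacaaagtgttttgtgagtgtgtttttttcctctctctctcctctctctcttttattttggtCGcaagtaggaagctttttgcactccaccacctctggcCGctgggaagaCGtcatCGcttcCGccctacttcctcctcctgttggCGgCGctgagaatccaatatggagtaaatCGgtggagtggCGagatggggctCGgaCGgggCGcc
Dusp6: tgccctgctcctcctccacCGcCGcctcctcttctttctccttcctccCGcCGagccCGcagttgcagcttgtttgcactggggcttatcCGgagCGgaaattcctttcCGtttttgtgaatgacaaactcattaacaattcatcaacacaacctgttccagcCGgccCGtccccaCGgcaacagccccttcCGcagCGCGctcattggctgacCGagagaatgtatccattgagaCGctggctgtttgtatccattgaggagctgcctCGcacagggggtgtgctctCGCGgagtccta
Fgf10: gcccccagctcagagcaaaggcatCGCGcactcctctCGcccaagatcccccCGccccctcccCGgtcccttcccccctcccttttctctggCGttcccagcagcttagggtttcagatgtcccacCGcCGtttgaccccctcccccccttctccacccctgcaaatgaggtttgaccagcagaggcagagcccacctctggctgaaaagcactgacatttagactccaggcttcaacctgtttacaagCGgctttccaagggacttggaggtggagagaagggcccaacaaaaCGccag
Fgf4: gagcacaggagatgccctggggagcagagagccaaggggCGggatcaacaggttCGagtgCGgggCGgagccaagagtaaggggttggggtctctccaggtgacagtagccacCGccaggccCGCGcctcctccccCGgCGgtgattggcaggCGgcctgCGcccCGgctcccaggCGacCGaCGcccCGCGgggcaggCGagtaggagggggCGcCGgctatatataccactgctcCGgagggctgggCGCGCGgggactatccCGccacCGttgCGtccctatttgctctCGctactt
Fgf23: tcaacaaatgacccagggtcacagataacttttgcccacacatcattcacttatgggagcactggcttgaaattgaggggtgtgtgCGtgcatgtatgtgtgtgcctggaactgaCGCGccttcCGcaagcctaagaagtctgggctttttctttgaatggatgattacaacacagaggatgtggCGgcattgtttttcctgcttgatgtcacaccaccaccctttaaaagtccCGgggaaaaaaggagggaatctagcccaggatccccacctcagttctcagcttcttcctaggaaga

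The Spry2 and Fgf4 promoters held 28 CG dinucleotides each, Dusp6 held 19, Spred2 17, Fgf10 10 and Fgf23 6. A single RefSeq promoter was matched to 36 of the 52 placed members, and their median was 21.5 CG dinucleotides per 300 bases (range 3 to 49), against a median of 7 over all 32851 promoters of the table. Those promoters were not limited to placed genes or to genes with a single promoter, so the sets compared here are not chosen alike. By the state of the start in limb, the median was 24 in 17 members with both marks, 18.5 in 14 with H3K4me3 alone and 11 in 5 with neither mark. The ETS core CCGGAA, a motif of the transcription factors that act downstream of ERK, was searched on both strands. It was found in 6 of the 36 promoters (16.7%), Spry2 among them, against 14.9% of all promoters. The TCF/LEF core CTTTGA, a motif of the Wnt pathway, was found in 4 (11.1%), Fgf23 among them, against 16%. Both shares lay close to those of all promoters.

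Members carried H3K27me3 at the start more often than placed genes in general. A region of the mark overlapped the window from 1 kb before to 1 kb after the start in 29 of 52 members in limb (55.8%, interval 41.3 to 69.5), against 29.1% of all genes, and in 23 in forebrain (44.2%, interval 30.5 to 58.7), against 18.9% of all genes. H3K4me3 was present at 44 starts in limb (84.6%, all genes 74.7%) and 41 in forebrain (78.8%, all genes 73.4%). H3K4me1 lay at 44 starts in limb (84.6%, all genes 71.5%) and 36 in forebrain (69.2%, all genes 61.3%), and H3K27ac at 27 in limb (51.9%, all genes 55.1%). The excess over all genes was therefore larger for H3K27me3 than for the other marks, and for H3K27ac there was none. The limb input list had a region at 2 of the 52 starts, and the forebrain input and the H3K27ac input had none. Within 100 kb of the start, H3K27me3 was found for 46 members in limb (88.5%, all genes 73.2%) and 43 in forebrain (82.7%, all genes 60.9%). The other marks reached 47 to 51 members there and 89.4 to 97.6% of all genes.

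Most members with H3K27me3 at the start also had H3K4me3 there. The regions of the 2 marks were not required to overlap, and for the 11 members with several points they may lie at different points. Both marks were present at 28 starts in limb (53.8%, interval 39.5 to 67.8), against 25.6% of all genes, and at 21 in forebrain (40.4%, interval 27 to 54.9), against 16.8%. H3K4me3 alone was present at 16 starts in limb (30.8%, all genes 49.1%) and 20 in forebrain (38.5%, all genes 56.6%). H3K27me3 alone was found at 1 start in limb, Fgfr3 (all genes 3.47%), and at 2 in forebrain, Fgfr3 and Fgf4 (all genes 2.06%). Neither mark was found at 7 starts in limb (all genes 21.9%) and 9 in forebrain (all genes 24.6%), with Dusp1, Dusp21, Fgf1 and Fgf23 in both sets. The state was the same in limb and forebrain at 20 starts with both marks, 13 with H3K4me3 alone, 1 with H3K27me3 alone and 7 with neither. In tissue of many cell types, 2 marks on the same alleles and the marks on different cells cannot be told apart.

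**Figure D1:**
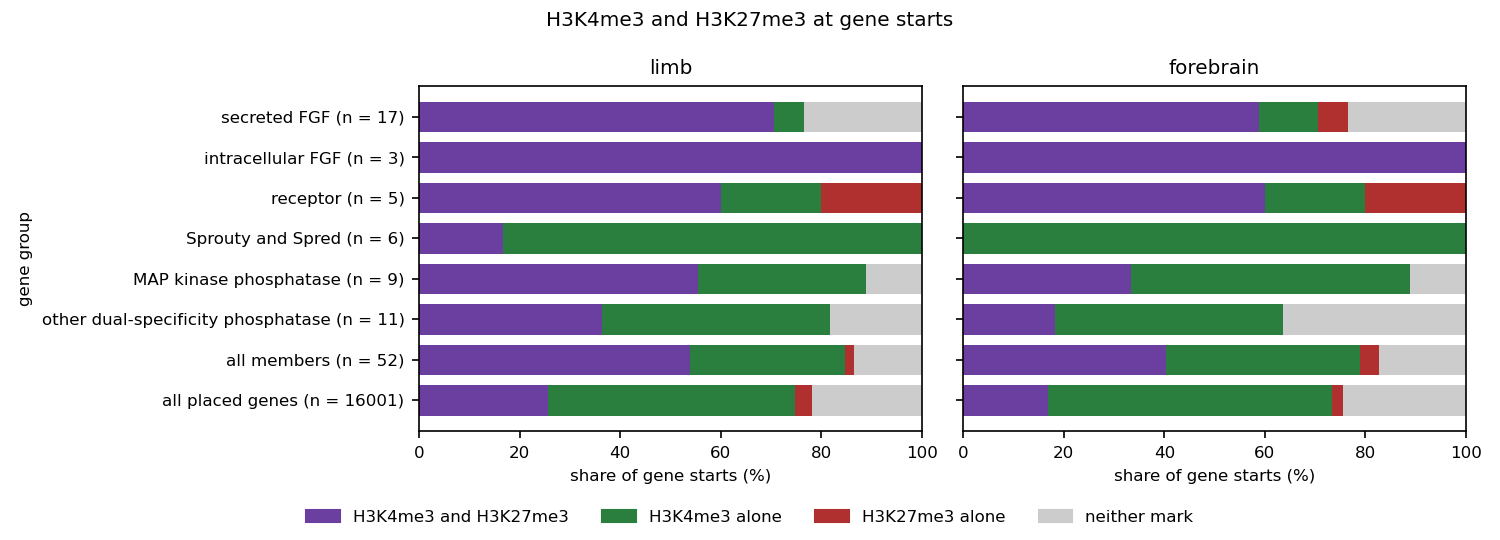
Share of gene starts (horizontal axis, %) with H3K4me3 and H3K27me3 together, either alone or neither, in limb and forebrain, for each role, for all 52 placed members and for all 16001 placed genes. The part with both marks is longest in the intracellular FGFs, at 3 of 3, is 1 of 6 in limb and 0 of 6 in forebrain for Sprouty and Spred, and in all members is 53.8% in limb and 40.4% in forebrain, against 25.6% and 16.8% of all genes.

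The roles differed. Both marks lay at 12 of 17 secreted FGFs in limb and 10 in forebrain, at all 3 intracellular FGFs in both tissues, and at 3 of 5 receptors in both. Among the inhibitors they lay at 5 of 9 MAP kinase phosphatases in limb and 3 in forebrain, and at 1 of 6 Sprouty and Spred genes in limb and none in forebrain. Of the other dual-specificity phosphatases, a role apart from the inhibitors, 4 of 11 had both in limb and 2 in forebrain. H3K27ac in limb lay at all 6 Sprouty and Spred starts, 7 of 9 MAP kinase phosphatases, 3 of 5 receptors, 6 of 11 other dual-specificity phosphatases, 1 of 3 intracellular FGFs and 3 of 17 secreted FGFs. It was present at 12 of the 28 starts with both marks, against 35.9% of all genes in that state, and at 15 of the 16 with H3K4me3 alone, against 91.1%. The exception among the 16 was Fgf22, an FGF known from synapse formation in the brain.

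**Figure D2:**
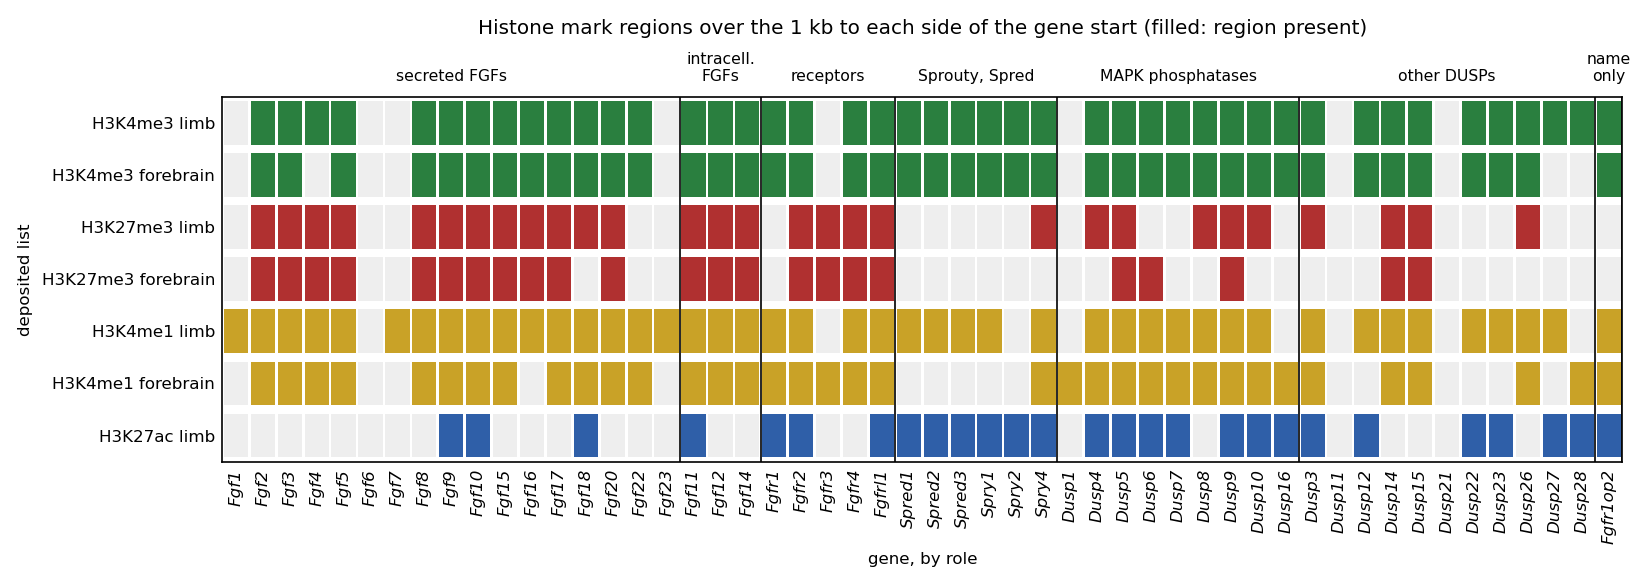
Presence (filled) or absence (grey) of a region of each histone mark list (rows) over the 1 kb to each side of the start, for every placed member (columns, grouped by role). H3K27me3 fills most secreted and intracellular FGFs in both tissues, and H3K27ac of limb fills every Sprouty and Spred gene but only Fgf9, Fgf10 and Fgf18 of the secreted FGFs.

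Among secreted ligands, Fgf8, the signal of the limb bud ridge and of the midbrain border, had the longest H3K27me3 coverage of all members in limb. The H3K27me3 regions that touched its start summed to 18159 bp in limb and 3016 bp in forebrain, and its H3K4me3 regions to 2168 bp in limb and 941 bp in forebrain. The median over marked members was 5771 bp of H3K27me3 in limb, against 4100 bp over all marked genes, and 2059 bp in forebrain, against 1533 bp. Regions in limb were thus longer than in forebrain for members and for genes in general, and Fgf8 stood far above both medians in limb. Its start had no H3K27ac region in limb.

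The neighbours Fgf3, Fgf4 and Fgf15 form a cluster on chromosome 7, with starts 22.7 kb and 35.1 kb apart, so they share much of their surroundings. Fgf4, also a ridge signal, had 10220 bp of H3K27me3 in limb and 3836 bp in forebrain, and 882 bp of H3K4me3 in limb, while the nearest H3K4me3 region in forebrain lay 21.6 kb away. Fgf3, which acts in inner ear and hindbrain development, had 8644 bp of H3K27me3 in limb and 407 bp in forebrain, the shortest coverage of any marked member. Fgf15, the mouse endocrine FGF of the gut that is also made in the embryonic brain, had 8350 bp in limb and 1406 bp in forebrain, and more H3K4me3 in forebrain (2479 bp in limb and 5682 bp in forebrain). All of the cluster's starts carried H3K27me3 in both tissues and none carried limb H3K27ac.

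Fgf10, the mesenchymal ligand that starts limb bud outgrowth, went against the order of the other ligands. Its H3K27me3 regions summed to 1731 bp in limb and 5388 bp in forebrain, and its H3K4me3 regions to 4485 bp in limb and 3016 bp in forebrain. It carried H3K27ac over 2301 bp in limb. Of the members with H3K27me3 in both tissues, Fgf10 alone had the longer coverage in forebrain. Fgf9, which signals from epithelium to mesenchyme, had 10629 bp of H3K27me3 in limb and 2530 bp in forebrain together with 2145 bp of limb H3K27ac. Fgf18, of the Fgf8 subfamily and active in skeletal growth, had 6227 bp of H3K27me3 in limb, none within 1 kb of the start in forebrain, and 1827 bp of limb H3K27ac. Its forebrain H3K27me3 began 1025 bp from the start, just outside the window. Fgf17, a close relative of Fgf8, had 5479 bp in limb and 1724 bp in forebrain with no H3K27ac.

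Other secreted members lacked both marks. Fgf1, a ligand of all FGF receptors, had its nearest H3K4me3 region 61.7 kb from the start in limb and in forebrain, and Fgf23, the phosphate hormone of bone, had it 6.59 kb away in limb and 6.52 kb away in forebrain. Both starts had H3K4me1 in limb and not in forebrain. Fgf11 and Fgf14, intracellular FGFs that bind sodium channels rather than receptors, carried both marks in both tissues. Fgf11 had 15589 bp of H3K27me3 in limb and 5039 bp in forebrain, and Fgf14 had 3581 bp in limb and 1357 bp in forebrain. Neither start lacked H3K27me3 in either tissue, and Fgf11 also had limb H3K27ac over 1008 bp.

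The receptors fell into different states. Fgfr1, the receptor of limb mesenchyme and of many embryonic tissues, had H3K4me3 over 4009 bp in limb and 3907 bp in forebrain, limb H3K27ac over 2967 bp and no H3K27me3 at its starts in either tissue. Fgfr2, the receptor whose epithelial form binds Fgf10, had both marks, with 5771 bp of H3K27me3 in limb and 1736 bp in forebrain and the longest H3K4me3 coverage of any member in forebrain (5493 bp in limb and 8417 bp in forebrain). Fgfr3, known from cartilage and from neural progenitors, had 13284 bp of H3K27me3 in limb and 746 bp in forebrain and no H3K4me3 at its start in either tissue. Its nearest H3K4me3 region lay 25 kb away in limb and 5.57 kb away in forebrain. Fgfr4 had 3755 bp of H3K27me3 in limb and 729 bp in forebrain without limb H3K27ac, and Fgfrl1, which lacks the kinase domain, had 1273 bp in limb and 870 bp in forebrain with H3K27ac.

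Sprouty and Spred starts carried H3K4me3 in both tissues and H3K27ac in limb without exception. H3K4me3 regions at Spry2 summed to 7238 bp in limb and 7031 bp in forebrain, at Spry1 to 2793 bp in limb and 4715 bp in forebrain, and at Spry4 to 4340 bp in limb and 2792 bp in forebrain. The Spred genes had 3349 to 4720 bp in limb and 3374 to 5265 bp in forebrain. These proteins are induced by FGF signals and dampen Ras and Raf. Spry4 was the 1 gene of the 6 with H3K27me3 at the start, over 1643 bp in limb, and in forebrain the mark began 1148 bp from the start. Near the window without touching it, H3K27me3 also lay 1483 bp from the Spred1 start in forebrain and 1490 bp from the Spred3 start in limb.

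Of the MAP kinase phosphatases, Dusp6 encodes the phosphatase specific for ERK and is a classical readout of FGF signalling. It was the 1 member with H3K27me3 at the start in forebrain and not in limb. The coverage was 0 bp in limb and 3048 bp in forebrain. That forebrain region ran from 0.904 to 3.952 kb downstream, so it only touched the edge of the 1 kb window and did not cover the start itself. H3K4me3 at Dusp6 was nearly the same in both tissues (6140 bp in limb and 6247 bp in forebrain). In limb its nearest H3K27me3 region lay 752 kb away, and limb H3K27ac covered 5872 bp, more than at any other member. In the opposite direction, 7 members had H3K27me3 at the start in limb and not in forebrain, namely Dusp3, Dusp4, Dusp8, Dusp10, Dusp26, Fgf18 and Spry4. Over all genes, too, the mark lay at more starts in limb (29.1%) than in forebrain (18.9%). The share of all genes with the mark in 1 tissue alone is not given, so these counts are no trait of the members. Dusp8, a phosphatase of JNK and p38, had 14551 bp in limb and 0 bp in forebrain, where the mark began 1006 bp from the start. Dusp4, a nuclear phosphatase, had 2718 bp in limb, Dusp10, which acts on p38 and JNK, had 1708 bp, and Dusp3 and Dusp26, small phosphatases outside the main family, had 3713 bp and 3358 bp, each with 0 bp in forebrain. The nearest forebrain region lay 2.49 kb from the Dusp4 start, 18.2 kb from Dusp3, 679 kb from Dusp10 and 825 kb from Dusp26.

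Dusp7, another cytoplasmic ERK phosphatase, carried H3K4me3 alone, over 8443 bp in limb (the longest of any member) and 5023 bp in forebrain. Dusp5, the nuclear ERK phosphatase, had both marks, with 3687 bp of H3K27me3 in limb and 1461 bp in forebrain, together with limb H3K27ac. Dusp1, an immediate early gene, had neither mark within 1 kb, and its nearest H3K4me3 lay 4.57 kb away in limb and 3.79 kb away in forebrain. With the window widened to 2 kb on each side, H3K27me3 lay at 32 members in limb (61.5%, all genes 30.4%) and 27 in forebrain (51.9%, all genes 22.3%).

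The remaining members of the named set filled in the same picture. Fgf2, a ligand stored in the extracellular matrix, had 3727 bp of H3K27me3 in limb and 2059 bp in forebrain, and Fgf20, a relative of Fgf9, had 4622 bp in limb and 4493 bp in forebrain, nearly the same coverage in both tissues. Dusp16, a phosphatase of JNK and p38, had H3K4me3 alone over 3834 bp in limb and 3743 bp in forebrain. Dusp12 and Dusp23, atypical phosphatases outside the MAP kinase group, also had H3K4me3 alone in both tissues, over 1457 and 1262 bp in limb and 1503 and 1545 bp in forebrain. Dusp21 had no mark at its start and 3 FLAG peaks within 100 kb in all 14 lists, among the fewest of any member.

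SMARCA4 lay at the starts of the inhibitors in more tissues than at those of the ligands, before regions over control lists were left out. A SMARCA4 region touched the window at the start in 43 members in face (82.7%, all genes 74.1%), 40 in neural tube (76.9%, all genes 54.8%), 22 in forebrain (42.3%, all genes 30.8%), 22 in limb (42.3%, all genes 26.8%), 19 in heart (36.5%, interval 23.6 to 51, all genes 21.4%), 12 in hindbrain (23.1%, all genes 18.3%), 2 in midbrain (3.85%, all genes 2.18%) and 2 in ESC (3.85%, all genes 6.77%). It was there in at least 4 of the 8 SMARCA4 lists at 25 members (48.1%), against 27.8% of all genes. By role these were 7 of 9 MAP kinase phosphatases, 5 of 6 Sprouty and Spred genes, 3 of 5 receptors (Fgfr1, Fgfr2 and Fgfr4), 4 of 17 secreted FGFs, 4 of 11 other dual-specificity phosphatases, 1 of 3 intracellular FGFs and Fgfr1op2. Spry2 and Dusp10 had SMARCA4 at the start in 6 lists each, and Spred1, Spred2, Spry4, Dusp3, Dusp5, Dusp6, Dusp7, Dusp16 and Fgf2 in 5 each. Fgf8, by contrast, had it in 2.

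Control lists also held peaks at these starts. The control of SMARCA4 midbrain had a region at 40 member starts (76.9%, all genes 66.5%), that of EP300 face at 37 (71.2%, all genes 65.3%) and that of NCOA2 at 14 (26.9%, all genes 25.9%), while those of SMARCC2 face, SMARCC2 hindbrain and NCOA1 had none (all genes 0.294%, 2.69% and 2.66%). When regions that overlap any control or input list were left out, SMARCA4 remained at the start of 10 members in heart (19.2%, all genes 9.51%), 5 in face (9.62%, all genes 8.95%), 5 in hindbrain (9.62%, all genes 3.21%), 3 in limb (5.77%, all genes 1.01%), 2 in neural tube (3.85%, all genes 2.85%), 2 in forebrain (3.85%, all genes 1.59%), 2 in ESC (3.85%, all genes 4.21%) and 0 in midbrain (all genes 0.862%). Dusp7 was the 1 member with SMARCA4 at the start in at least 4 lists and no control region there, and it kept SMARCA4 in face, forebrain, neural tube, limb and heart after this step. Fgfr3 kept it in forebrain, neural tube and limb. By role, no list but heart kept more than 1 of 9 MAP kinase phosphatases, 1 of 6 Sprouty and Spred genes or 1 of 17 secreted FGFs. Outside heart so few starts remained that inhibitors and ligands could not be compared. The step also does not set heart apart, because the heart control was not among the lists used. Median widths differed too, at 353 bp in heart, 489 bp in face and 333 bp in hindbrain, against 3100 bp in forebrain, 2300 bp in limb and 2250 bp in neural tube. Whether the difference holds in any tissue beyond control signal was not tested. The part of the control signal in the other counts was not tested.

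In limb, SMARCA4 lay at 9 of the 16 members with H3K4me3 alone (56.2%, interval 29.9 to 80.2), against 32.6% of all genes in that state, and at 10 of the 28 with both marks (35.7%, interval 18.6 to 55.9), against 38.5%. In forebrain it lay at 9 of 20 with H3K4me3 alone (45%, all genes 38.1%) and at 11 of 21 with both marks (52.4%, all genes 45.8%). These intervals are wide and all but the first share in limb lie close to the values of all genes. SMARCA4 came from the tagged strain and the marks from CD1 embryos.

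Within 100 kb of the start, SMARCA4 peaks were counted by their midpoint. A peak was found for 52 members in face (100%, all genes 98.1%), 50 in neural tube (96.2%, all genes 90.4%), 42 in heart (80.8%, all genes 74.8%), 40 in forebrain (76.9%, all genes 72.1%), 36 in limb (69.2%, all genes 64%), 32 in ESC (61.5%, all genes 61.9%), 30 in hindbrain (57.7%, all genes 59.6%) and 17 in midbrain (32.7%, interval 20.3 to 47.1, all genes 20.2%). Over the 8 lists a member had 2 to 40 SMARCA4 peaks with a median of 19.5, against 15 for all genes. In these wide windows the members therefore differed little from other genes except in midbrain. There the lower bound of the interval lay just above the share of all genes. The highest-ranked midbrain peaks of members, near Dusp11, Fgfr1 and Fgf22, each had a deposited false discovery rate of 100%. The midbrain control had a peak for 51 members. Without peaks over a control or input list the midbrain share was 21.2%, against 14.1% of all genes. Whether the midbrain excess is FLAG signal was not tested. Territories of the Fgf3, Fgf4 and Fgf15 cluster and of Fgf23 and its neighbour Fgf6 (57.4 kb apart, named here after its values were seen) overlap and share peaks.

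**Figure D3:**
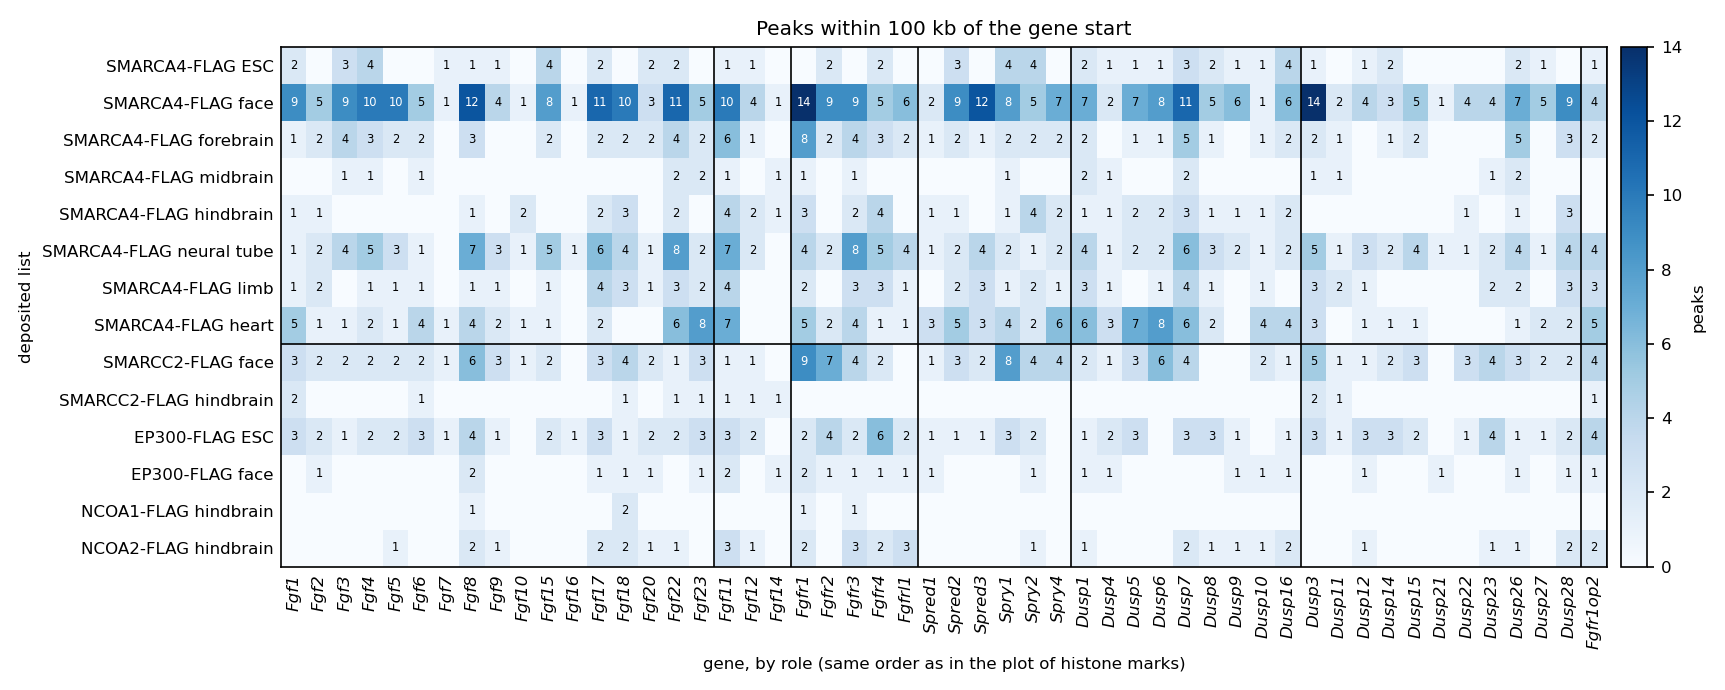
Number of peaks within 100 kb of the start (cell value and colour) in each FLAG list (rows) for each placed member (columns, grouped by role in the order of the plot of histone marks). Face holds the most SMARCA4 peaks for most members, up to 14 at Fgfr1 and Dusp3, and heart is dense over Dusp6 and Fgf23, with 8 each.

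In heart the inhibitors had more SMARCA4 peaks than the other roles with several members. MAP kinase phosphatases averaged 4.44 heart peaks per gene and Sprouty and Spred genes 3.83, against 2.6 for the receptors, 2.33 for the intracellular FGFs, 2.29 for the secreted FGFs, 1 for the other dual-specificity phosphatases and 2.37 for all placed genes. At the start itself, heart SMARCA4 lay at 7 of 9 MAP kinase phosphatases and 5 of 6 Sprouty and Spred genes, against 21.4% of all genes. It lay at 3 of 11 other dual-specificity phosphatases, 3 of 17 secreted FGFs (17.6%; Fgf2, Fgf9 and Fgf10), 0 of 3 intracellular FGFs and 0 of 5 receptors. Most MAP kinase phosphatases and Sprouty and Spred genes thus held SMARCA4 at the start in heart. The secreted FGFs lay near the share of all genes, and no receptor held it. The heart control itself was not among the lists used. Without regions over a control or input list the counts were 4 of 9 MAP kinase phosphatases, 2 of 6 Sprouty and Spred genes and 3 of 11 other dual-specificity phosphatases. They were 1 of 17 secreted FGFs and 0 of 5 receptors, against 9.51% of all genes.

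Dusp6 had 1 SMARCA4 peak in ESC, 8 in face, 1 in forebrain, 0 in midbrain, 2 in hindbrain, 2 in neural tube, 1 in limb and 8 in heart. Dusp5 had 1 in ESC, 7 in face, 1 in forebrain, 0 in midbrain, 2 in hindbrain, 2 in neural tube, 0 in limb and 7 in heart. Spry4 had 0 in ESC, 7 in face, 2 in forebrain, 0 in midbrain, 2 in hindbrain, 2 in neural tube, 1 in limb and 6 in heart. Dusp6 and Dusp5 had as many peaks in heart as in face and Spry4 had 1 fewer, although the heart list has 13755 peaks and the face list 35099. Dusp6 and Dusp5 were among the 3 members picked for the most heart peaks, so their high heart counts follow from that choice. The other of the 3 was a secreted ligand, Fgf23, with 8 peaks in heart and 5 in face, so such counts were not particular to inhibitors. The 8 heart peaks of Dusp6 lay from 90.8 kb upstream to 35.6 kb downstream, and the one 0.737 kb upstream of the start had 90 tags and ranked 1314 of 13755. The limb peak of Dusp6 spanned its start and ranked 67 of 5251, the highest rank of any member peak in limb.

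Spry2 had 4 SMARCA4 peaks in ESC, 5 in face, 2 in forebrain, 0 in midbrain, 4 in hindbrain, 1 in neural tube, 2 in limb and 2 in heart. Spry1 had 4 in ESC, 8 in face, 2 in forebrain, 1 in midbrain, 1 in hindbrain, 2 in neural tube, 1 in limb and 4 in heart. Spry1 and Spry2 were thus among the 5 members with 4 ESC peaks, the highest count there. Fgf8 had 1 in ESC, 12 in face, 3 in forebrain, 0 in midbrain, 1 in hindbrain, 7 in neural tube, 1 in limb and 4 in heart. Fgf10 had 0 in ESC, 1 in face, 0 in forebrain, 0 in midbrain, 2 in hindbrain, 1 in neural tube, 0 in limb and 1 in heart. All of the Fgf10 peaks lay within 1 kb of its start or over it, and in limb, where the gene acts, the list had none within 100 kb. Fgfr1 had 0 in ESC, 14 in face, 8 in forebrain, 1 in midbrain, 3 in hindbrain, 4 in neural tube, 2 in limb and 5 in heart, and Fgfr3 had 0, 9, 4, 1, 2, 8, 3 and 4 in the same order. Fgfr1 had the most forebrain peaks of any member and Fgfr3 shared the most neural tube peaks (8) with Fgf22.

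Over the 8 SMARCA4 lists together, Dusp7 and Fgf11 had the most peaks, 40 each, and Fgf22 had 38. Dusp7 had 3 in ESC, 11 in face, 5 in forebrain, 2 in midbrain, 3 in hindbrain, 6 in neural tube, 4 in limb and 6 in heart, so it had peaks in every list. Fgf11 had 1 in ESC, 10 in face, 6 in forebrain, 1 in midbrain, 4 in hindbrain, 7 in neural tube, 4 in limb and 7 in heart. At the other end, Fgf14 had 1 peak each in face, midbrain and hindbrain, and Dusp21 1 each in face and neural tube. Fgf1 had 5 of its 20 SMARCA4 peaks in heart and Fgf23 8 of 21, and neither gene had a heart peak at its start.

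SMARCA4 peaks of the 8 lists that overlap were merged, which gave 429 regions in the territories of the members. Of these, 152 overlapped the 1 kb around the start of some gene and 277 did not. Of the 277, 145 had a member as their nearest gene, 185 lay over H3K4me1 of limb or forebrain, 55 over limb H3K27ac and 57 over a control or input list. Regions held by 3 or more tissues were 32 of the 277 (11.6%), against 7.45% of all such regions of the genome, and 85 of the 152 at starts (55.9%), against 55%. Regions away from starts were thus mostly held by 1 tissue, 205 of 277 here (74%), a lower share than the 81.9% of all such regions of the genome. Shares over all regions are not given for the nearest gene, the marks or the control and input lists.

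A few regions away from starts were held by many tissues and had a member as their nearest gene. The region at chr11:19816801-19821450 (mm9), 5.32 kb upstream of Spred2, was held by 6 tissues (ESC, face, forebrain, neural tube, limb and heart) and lay over H3K4me3, H3K4me1, limb H3K27ac and forebrain H3K27me3, with 1 control or input list over it. The region at chr17:26638801-26642300, 4.86 kb downstream of the Dusp1 start, was held by 5 tissues (ESC, face, forebrain, midbrain and heart) with no control or input list. It lay over H3K4me3, H3K4me1 of both tissues and limb H3K27ac, while the Dusp1 start had neither H3K4me3 nor H3K27ac. The region at chr9:106239929-106243786, 29.1 kb upstream of Dusp7, was held by ESC, face, midbrain, hindbrain and heart with no control or input list. A SMARCC2 face peak over it ranked 35 of 11321 with 388 tags, the highest rank of any member peak in that list.

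The region at chr5:34043501-34051250, 17 kb upstream of Fgfr3, was held by face, forebrain, hindbrain, neural tube and heart. It lay over H3K27me3 and H3K4me1 of limb and forebrain and over limb H3K27ac, without H3K4me3, and 1 control or input list touched it. The region at chr14:106317851-106321350, 23.6 kb upstream of Spry2, was held by ESC, face, forebrain and hindbrain, with no control or input list. SMARCC2 face and EP300 ESC peaks lay 23.9 kb upstream, inside it. It lay over limb H3K27ac, H3K4me1 of both tissues, H3K4me3 and forebrain H3K27me3, so an inhibitor whose start had no H3K27me3 had the mark at this upstream region in forebrain.

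**Figure D4:**
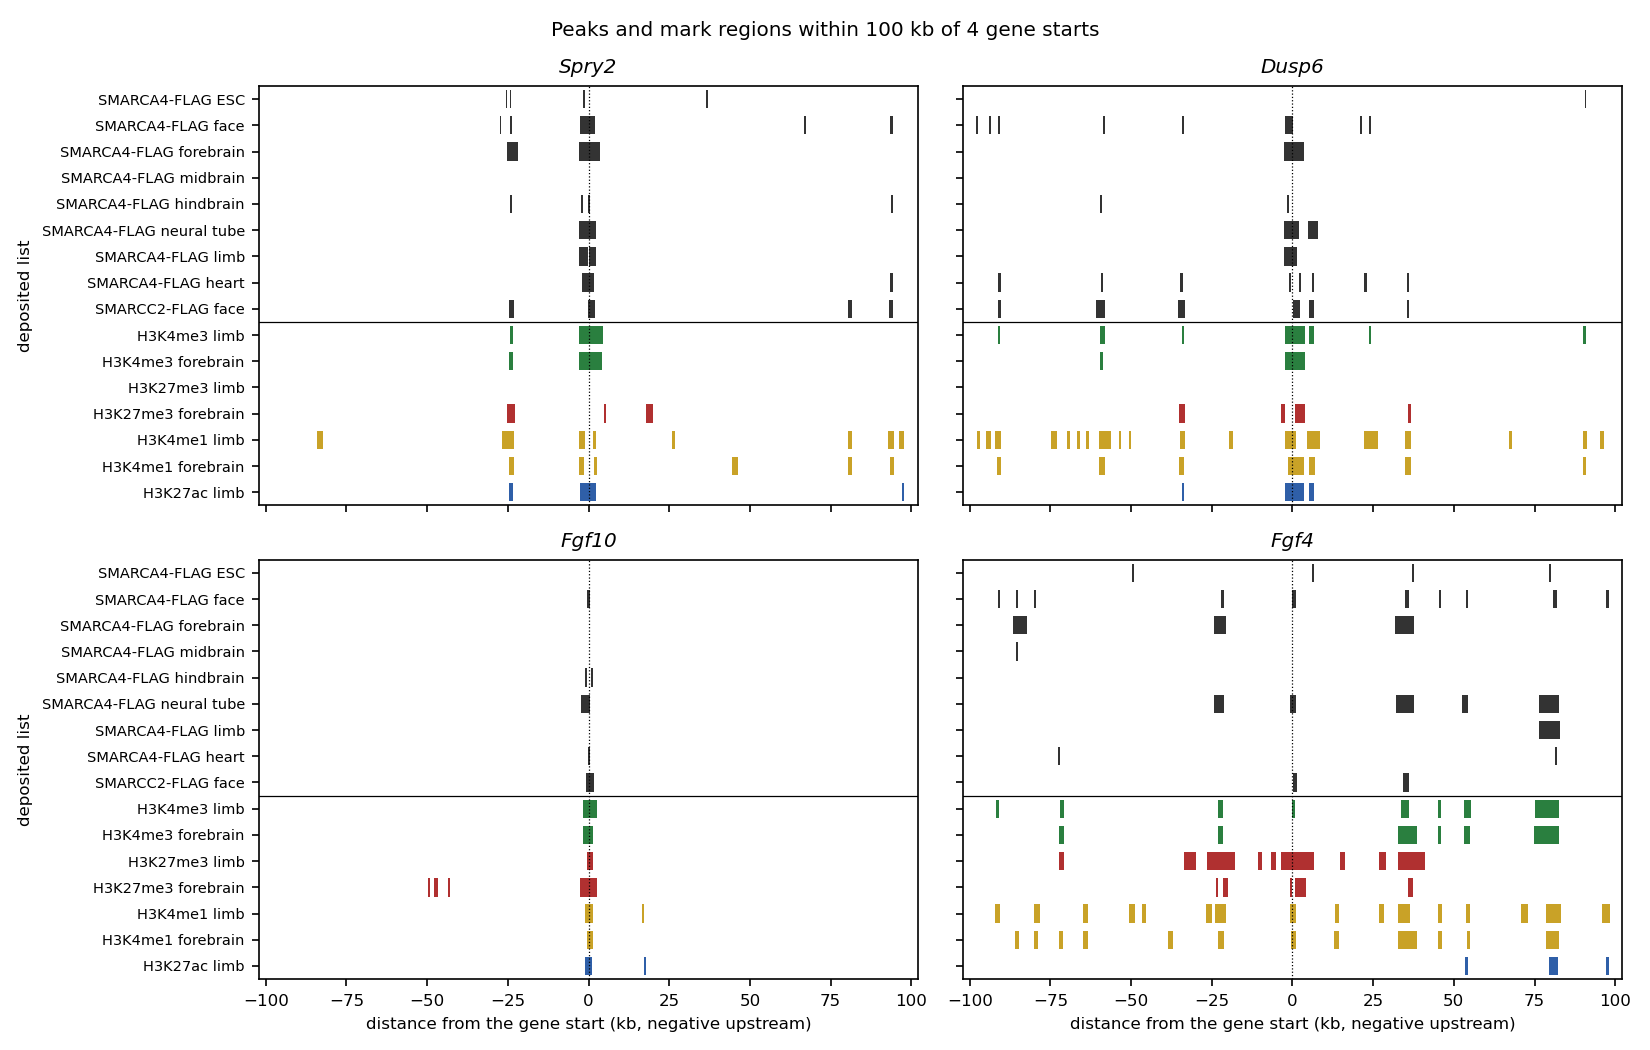
Peaks and mark regions (bars, drawn to scale) within 100 kb of the starts of Spry2, Dusp6, Fgf10 and Fgf4 (horizontal axis, distance from the start in kb, negative upstream) in the SMARCA4 lists, SMARCC2 face and the histone mark lists (rows). Spry2 and Dusp6 show bars at the start in most SMARCA4 lists and no limb H3K27me3, Fgf10 shows bars at the start almost alone, and Fgf4 shows limb H3K27me3 over its start and the neighbouring starts.

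Of the regions away from starts, 116 were held by face alone, 45 by heart alone and 28 by ESC alone. The 45 of heart lay in the territories of 26 members, with 4 each at Dusp1 and Fgf1 and 3 each at Dusp7, Dusp10, Spred2 and Spry4. Of these 45, 17 lay over limb H3K4me1 and 1 over a control or input list. The highest heart peak of any member by rank, 172 of 13755 with 140 tags, lay 76.6 kb upstream of Dusp1. Numbers of peaks held by 1 tissue also depend on the lengths of the lists, and shares over all regions of each tissue are not given here.

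SMARCC2 in face had a peak within 100 kb of 46 members (88.5%, interval 76.6 to 95.6), against 74.8% of all genes, with 2.58 peaks per member against 1.79 per gene. It lay at the start of 24 members (46.2%, all genes 26.9%). Without regions over any control or input list it remained at 1, Dusp6 (1.92%, all genes 3.82%), so the excess over all genes was not kept. Fgfr1 had 9 peaks, Spry1 8, Fgfr2 7, and Fgf8 and Dusp6 6 each. The receptors averaged 4.4 peaks and the Sprouty and Spred genes 3.67, against 2.29 for the secreted FGFs and 2.11 for the MAP kinase phosphatases. The peak over the Fgf10 start, chr13:119503019-119505628, had 169 tags and a deposited fold enrichment of 5.91, and ranked 177 of 11321. It did not overlap its own control, but the controls of SMARCA4 midbrain and EP300 face had a region at that start. SMARCC2 in hindbrain had a peak for 11 members (21.2%, all genes 16.9%) and none at a start (all genes 0.556%).

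EP300 had a peak for 46 members in ESC (88.5%, all genes 83.5%) and 25 in face (48.1%, all genes 53.3%), with 20 starts in ESC (38.5%, all genes 34.9%) and 8 in face (15.4%, all genes 19.3%). The 8 face starts were Dusp1, Dusp4, Dusp12, Dusp16, Fgfr2, Fgfrl1, Spred1 and Spry2, and no secreted FGF was among them. NCOA2 in hindbrain had a peak for 25 members (48.1%, all genes 53.5%) and at 8 starts (15.4%, all genes 21.2%). NCOA1 had a peak for 4 members (7.69%, interval 2.14 to 18.5), against 20.5% of all genes, and at 0 starts (all genes 5.1%). The 4 were Fgf8, Fgf18, Fgfr1 and Fgfr3, and no line of the NCOA1 table names a member as the nearest gene.

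Some high-ranked peaks of these lists lay at starts of other genes. The NCOA1 peak of rank 14 of 1414 that lay 99.4 kb from Fgfr3 was 0.273 kb from the start of Whsc1. The NCOA1, NCOA2 and EP300 face peaks 82.6 to 82.7 kb from Fgf8 lay at the start of Fbxw4, and the NCOA1 peak 15.1 kb from Fgf18 lay 0.524 kb from Npm1. Peaks in member territories were also placed by their midpoint. It lay within 1 kb of the start of some gene for 35 of 40 peaks of NCOA2, 22 of 28 of EP300 face, 50 of 96 of EP300 ESC and 3 of 5 of NCOA1. These include peaks with the midpoint within 1 kb of a member's own start, 7 for NCOA2, 6 for EP300 face, 19 for EP300 ESC and 0 for NCOA1.

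In face, 94 of the 128 SMARCC2 peaks in member territories overlapped a SMARCA4 peak (73.4%, interval 64.9 to 80.9), against 72.4% of all SMARCC2 peaks, and 24 of the 28 EP300 peaks did (85.7%), against 77.8%. EP300 peaks overlapped SMARCC2 in 12 of 28 cases (42.9%, interval 24.5 to 62.8), against 21% of all EP300 peaks, with Spry2, Spred1, Dusp4, Fgf8, Fgfr1, Fgfr2 and Fgfr3 among the 12 members concerned. Each of these named members had an EP300 face peak that also overlapped its own control, as 17 of the 28 peaks did. The part of control signal in this overlap was not tested. In hindbrain, NCOA2 peaks overlapped SMARCA4 in 14 of 40 cases (35%, all peaks 30.1%), and SMARCC2 peaks in 0 of 12 (all peaks 1.5%). In ESC, EP300 peaks overlapped SMARCA4 in 1 of 96 cases (1.04%, all peaks 1.98%), at Fgf17. NCOA1, with 5 peaks in member territories, overlapped SMARCA4 in 2 (40%, all peaks 16.1%) and NCOA2 in 3 (60%, all peaks 41.9%). The interval held the share of all peaks in each of these pairs except EP300 with SMARCC2 in face, and there too when the overlap had to cover at least 50% of the shorter peak (9 of 28, 32.1%, interval 15.9 to 52.4, all peaks 18.1%).

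Beside their own controls, the FLAG lists did not all have more member peaks. SMARCC2 face had a peak for 46 members and its control for 4 (all genes 12.2%), and SMARCC2 hindbrain for 11 and its control for 6 (all genes 15.1%). SMARCA4 midbrain had a peak for 17 members and its control for 51 (all genes 94.5%), EP300 face for 25 and its control for 52 (all genes 97%), NCOA1 for 4 and its control for 9 (all genes 22.1%), and NCOA2 for 25 and its control for 40 (all genes 72.2%). The controls of midbrain and EP300 face are long lists of 19772 and 28895 peaks. FLAG peaks that overlapped a peak of their own control were 17 of 28 in EP300 face (60.7%, interval 40.6 to 78.5, all peaks 64.4%), 4 of 20 in SMARCA4 midbrain (20%, all peaks 11.4%), 4 of 40 in NCOA2 (10%, all peaks 25.3%) and 0 in SMARCC2 face, SMARCC2 hindbrain and NCOA1. In EP300 face they included the peaks at the Dusp1, Dusp4, Dusp12, Fgfr2, Fgfrl1, Spred1 and Spry2 starts. Of the member starts with an EP300 face peak, only Dusp16 had one that did not overlap this control. In NCOA2 they included the peak at Dusp10.

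**Figure D5:**
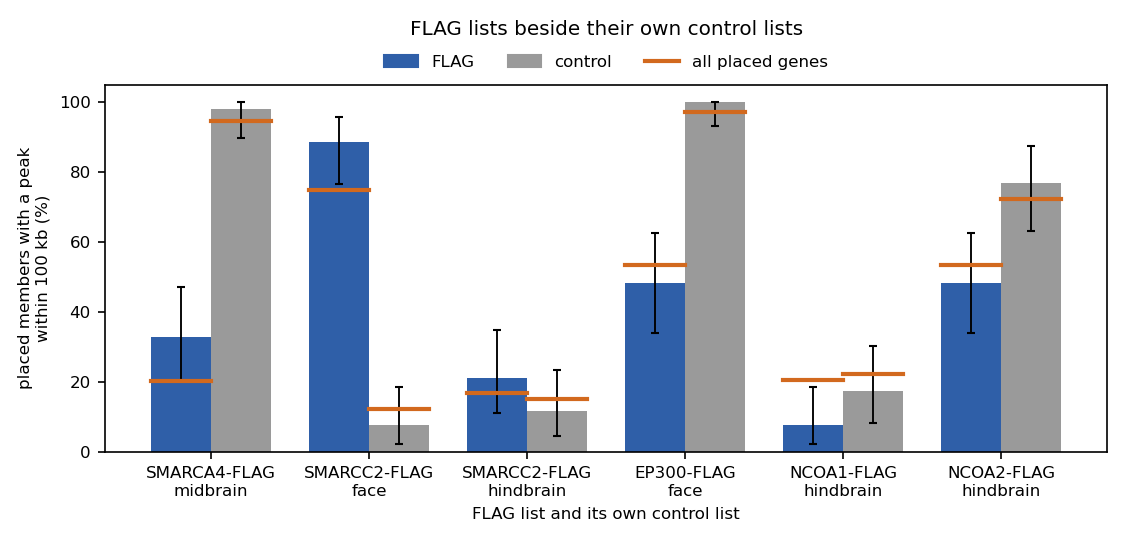
Share of the 52 placed members with a peak within 100 kb (vertical axis, %) in 6 FLAG lists (blue) and in their own control lists (grey), with exact 95% Clopper-Pearson intervals and the share of all placed genes in the same list (orange line). The blue bar is above the grey one for SMARCC2 face and SMARCC2 hindbrain and below it for SMARCA4 midbrain, EP300 face, NCOA1 and NCOA2.

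Other genes of the FGF and ERK pathway, from adaptors and Ras to MEK, ERK and the ETS factors, showed another pattern of marks. Of 43 listed genes 38 were placed. H3K27me3 lay at 8 of the 38 starts in limb (21.1%, all genes 29.1%) and 9 in forebrain (23.7%, all genes 18.9%), H3K4me3 at 36 in each tissue (94.7%), and H3K27ac at 31 in limb (81.6%, all genes 55.1%). H3K27me3 was thus below the share of all genes in limb and above it in forebrain. In heart these genes had 3.68 SMARCA4 peaks per gene, against 2.37 for all genes, and SMARCA4 at 15 starts (39.5%, all genes 21.4%). EP300 in face lay at 17 of the 38 starts (44.7%), against 8 of the 52 members and 19.3% of all genes. Whether these shares differ between the lists was not tested.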

How the data were processed

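Per the submitters' processing notes, reads were mapped with BWA to mm9, with no version named, and the peak caller is not given in the sources used here. Per the file headers, 16 deposited tables give each peak's count of tags, a score from −10 times the log10 of p (at least 50 in every table), a ratio of fold enrichment, a percent false discovery rate (missing in 9 tables), a conservation score and the nearest gene. The other 14 deposited lists hold positions and a rank score. Such values, computed by the authors, serve only to describe, order or filter the peaks inside a list. The labels give chromatin of 300 to 500 bp and reads of 36 or 50 bp. The tissue tag of SMARCA4 hindbrain says forebrain, the SMARCA4 ESC label speaks of pooled embryos, the histone protocol names heart and hindbrain, and what an input control is remains unstated.

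Gene starts were worked out from summit and distance (18934 of 23432 transcript names, 0 conflicts). A peak belongs to a territory of 100 kb by its midpoint, and 11 members with several points use them all. A region is at a start if it overlaps the 1 kb to each side. Strands and symbols came from a RefSeq table of GRCm38.p6, which held 56 of the 57 members, and 39 placed members were in its promoter table. Scripts used Python 3.11.15, numpy 2.4.6, pandas 2.3.3, scipy 1.17.1 and matplotlib 3.10.9 and were tested on simulated lists.

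Members and lists were chosen with earlier results of these data known. Genes were named by rule: in each SMARCA4 list the 3 members with the most peaks, in each other FLAG list the 2, the receptors, Sprouty and Spred genes, Dusp6 and 8 major FGFs, members whose H3K27me3 differed between limb and forebrain, and members with a FLAG peak over its own control. The members without a start were named for completeness. Alternatives were a territory of 50 kb, peaks given to the nearest start, peaks near starts or over controls left out, a score of at least 100, lists of equal length (1414 peaks), a narrow family of 40 members, other overlap rules and a window of 2 kb.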

Additional observations from a re-analysis of the deposited data

Results flagged for a closer look

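FLAG lists of the same tissue differed in direction from their own controls. In face, SMARCC2 had 42 more members with a peak within 100 kb than its control, and EP300 had a difference of -27 (FLAG minus control members). In hindbrain, the difference was 5 for SMARCC2, -5 for NCOA1 and -15 for NCOA2. These differences were not tested, since each list belongs to 1 library. The EP300 face control has 28895 peaks and its FLAG list 3589, and the SMARCC2 face control has 1078 and its FLAG list 11321. The part of list length in these differences was not tested.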

How the results depend on the processing

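Each condition has 1 library, so no replicate could be left out, library depth is unknown, and the intervals cover counting error only. No paired analysis was possible because each group has 1 sample. The counts of members with a mark at the start stayed within 1.5 times under all 4 alternatives tried for them (2 kb window, regions over the input left out, narrow family, the point with the most peaks alone, the last chosen after seeing the data). Counts of members with a FLAG peak within 100 kb depended on the reach and the threshold, and in some lists the members' share changed side against the share of all genes. With 50 kb they were 9 in SMARCA4 midbrain (17.3%, all genes 12.1%), 3 in SMARCC2 hindbrain (5.77%, all genes 9.26%, below them where the main share was above) and 2 in NCOA1 (3.85%, all genes 12.7%), and SMARCA4 hindbrain went above all genes (51.9%, all genes 42.3%) and EP300 ESC below them (67.3%, all genes 69.4%). Without peaks within 1 kb of any start they were 17 in SMARCA4 hindbrain, 30 in neural tube, 22 in limb, 6 in EP300 face, 5 in NCOA2 and 2 in NCOA1. With peaks given to the nearest start they were 20 in SMARCA4 ESC, 26 in forebrain, 8 in midbrain, 19 in hindbrain, 27 in heart, 4 in SMARCC2 hindbrain, 30 in EP300 ESC, 10 in EP300 face, 9 in NCOA2 and 0 in NCOA1. In lists cut to 1414 peaks they were, with the share of members and of all genes, 14 in SMARCA4 ESC (26.9%, 19.5%), 20 in face (38.5%, 23.7%), 20 in forebrain (38.5%, 25.2%), 14 in hindbrain (26.9%, 23.2%), 18 in neural tube (34.6%, 25.7%), 13 in limb (25%, 25.4%), 14 in heart (26.9%, 19.4%), 12 in SMARCC2 face (23.1%, 18.4%), 5 in SMARCC2 hindbrain (9.62%, 9.9%), 5 in EP300 ESC (9.62%, 26.4%), 8 in EP300 face (15.4%, 27.5%) and 11 in NCOA2 (21.2%, 27.6%). With a score of at least 100 they were 9 in SMARCA4 ESC, 4 in midbrain, 10 in hindbrain, 20 in heart, 30 in SMARCC2 face, 0 in SMARCC2 hindbrain, 3 in EP300 ESC, 8 in EP300 face, 9 in NCOA2 and 1 in NCOA1. Without peaks over a control or input list they were, in the same form, 13 in SMARCA4 forebrain (25%, 22.8%), 11 in midbrain (21.2%, 14.1%), 19 in hindbrain (36.5%, 31.4%), 18 in neural tube (34.6%, 42.4%), 6 in limb (11.5%, 11.6%), 27 in SMARCC2 face (51.9%, 41.2%), 26 in EP300 ESC (50%, 46.4%), 5 in EP300 face (9.62%, 13.1%), 2 in NCOA2 (3.85%, 4.57%) and 2 in NCOA1 (3.85%, 5.16%). The share of all genes was not computed for the other alternatives that moved a count. These alternatives keep fewer peaks by construction. EP300 ESC peaks over SMARCA4 ESC were 0 when the overlap had to cover at least 50% of the shorter peak. Leaving out gene names that look like sequence accessions (13310 names kept) moved the shares of all genes by -0.4 to 2.3 percentage points.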

Other observations

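In ESC, the cluster of Fgf3, Fgf4 and Fgf15 was among the member loci with the most SMARCA4 peaks, with 3 peaks within 100 kb of Fgf3 and 4 each for Fgf4 and Fgf15. Relative to Fgf4, the ligand known from these cells, they lay 6.22 kb downstream (chr7:152053364-152053658), 37.3 kb and 79.7 kb downstream and 49.5 kb upstream. EP300 in ESC had peaks 22.1 kb upstream and 82 kb downstream of Fgf4, the first of them 0.599 kb from the Fgf3 start, and none of them overlapped a SMARCA4 ESC peak. At the Fgf4 start itself SMARCA4 was listed in face and neural tube and not in ESC. Histone marks of ESC were not analysed here.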
